A study of Mus musculus with 18 samples.

Results

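Parental WEHI-231 cells, a murine immature B cell lymphoma line whose surface receptor is IgM, were compared at a late and an early time of BCR stimulation. The members are 4 of the 18 RNA sequencing libraries of the series, namely the 2 labelled wt 18h and the 2 labelled wt 6h, and they were chosen by their labels. Both groups carry the WT genotype and received anti-mouse IgM F(ab')2 at 10 µg/ml, and their labels differ in time, 18 h against 6 h. The series holds untreated libraries at 0 h only, so that time with anti-IgM and time in culture cannot be told apart. The 2 untreated libraries (wt 0h) served as the resting level. The 12 remaining libraries come from the TFEB KO lines #A-59 and #B-20, each 1 clone made by genome editing, at the same 3 times. The study ran 2 independent experiments per group, and all p-values measure only the spread between these libraries of 1 cell line.

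The BCR signals through the Ig chains CD79A and CD79B, the kinases Lyn and Syk, and calcium, Ras-ERK, NF-κB and PI3K branches. In mature B cells such a signal drives growth, and in WEHI-231 cells, a classical model of B cell tolerance, prolonged cross-linking of IgM is known to lead to growth arrest and death. Comparing the late with the early time asks which transcripts turn on, which turn off and which return to the resting level while the stimulus lasts.

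The 6 h libraries held 22416854 and 24059996 counts, and the 18 h libraries held 11223588 and 19340288, so that the first 18 h library was the shallowest of the 6 parental ones. On log2 values, replicates correlated at 0.995 at 6 h and 0.991 at 18 h, and libraries of different time at 0.963 to 0.967 (Pearson's r across genes, which are not independent). Mitochondrial transcripts took 1.84 to 2.03% of the counts of these 4 libraries. The 11 B cell markers were all detected, and their summed level was 7552 to 7857 counts per Mio (CPM) at 6 h and 14470 to 14890 CPM at 18 h. Of 10 T cell markers, 5 stayed at or under 3 counts in all parental libraries, Trbc1, Trbc2 and Cd28 among them at 0. Cd3d, Cd3g, Cd4, Cd8b1 and Trac were above 3 counts in at least 1 of them. The sum of the 10 was 90.3 to 98.3 CPM at 6 h and 64.2 to 70.0 CPM at 18 h. Of 10 myeloid markers, 7 stayed at or under 3 counts, S100a8 and S100a9 among them at 0, and the sum was 2.01 to 2.13 CPM at 6 h and 8.39 to 9.18 CPM at 18 h, where most of it was Itgam. The labelled cell type thus had its defining transcripts. The second 6 h library of #B-20 stood apart, with 9.44% of its counts in the 20 most abundant genes against 6.24 to 7.26% in the others.

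Between 6 and 18 h of stimulation, 2061 of 15318 genes tested were differentially expressed (DEGs: FDR below 0.01 with a log2 fold change past 1 in either direction, edgeR), which is 13.5% of the genes. More of them rose than fell: 1155 DEGs (7.54%) were higher and 906 (5.91%) were lower at 18 h. This order depended on the processing. With no filter on low counts 1046 were higher and 1102 lower, and with a GC offset 1086 and 1032. For each of these DEGs the 2 late libraries did not overlap the 2 early ones in CPM. The genes were chosen on these same libraries, so that this gives no separate support. The median over all genes was 0.03 on the log2 scale. Changes past a log2 fold change of 2 were more frequent upwards (272 genes) than downwards (141 genes). The genes that rose were less abundant, with a median of 7.77 CPM against 22.7 CPM for the genes that fell and 19.0 CPM for all genes tested. They also included more non-coding transcripts: 159 of 1436 lncRNAs rose (11.1%) and 32 fell (2.23%), whereas among protein-coding genes 901 rose (7.44%) and 837 fell (6.91%). In bulk RNA, a change in the share of cells that express a gene and a change in RNA per cell cannot be told apart.

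The untreated libraries placed each DEG in a time course. The early response, 6 h against 0 h, was small, with 179 genes higher (1.17%) and 223 lower (1.46%), while 18 h against 0 h gave 851 higher (5.56%) and 728 lower (4.75%). These comparisons share libraries with that of 18 h against 6 h, and the classes below are therefore a description. A DEG was called reverting when it was also a DEG of the opposite direction from 0 to 6 h, and progressive when it was one of the same direction. It was called late when it was no DEG from 0 to 6 h but was one, in the same direction, from 0 to 18 h. Among the genes higher at 18 h, 542 were late (46.9%), 142 reverting (12.3%) and 6 progressive (0.519%), and among those lower at 18 h, 535 were late (59.1%), 84 reverting (9.27%) and 3 progressive (0.331%). The other 465 higher genes (40.3%) and 284 lower genes (31.3%) fell in no class. Leaving out the first 6 h library reduced the reverting higher genes from 142 to 84, and requiring at least 10 counts in every library reduced the reverting lower ones from 84 to 32.

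Genes that rose early and were then shut off included several of the largest falls. Of the 84, 71 were no longer called against rest at 18 h, 10 were still above it and 3 had gone below it, and their median log2 fold change was 1.88 from 0 to 6 h and −1.92 from 6 to 18 h. Fibcd1, a fibrinogen C domain-containing acetyl-group receptor, had 0 and 1 counts at rest, rising to 284 and 444 at 6 h, then 1 and 1 at 18 h. Both early libraries thus stood far above the other 4, and the 6 h to 18 h ratio of its pooled counts per library total was 239 (95% exact interval 66.0 to 1980, counting error only). Il1rn, the interleukin-1 receptor antagonist, had 6 and 6 counts at rest, 270 and 273 at 6 h, then 4 and 0 at 18 h, a ratio of 89.3 between 6 and 18 h (34.7 to 329).

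Ccl22, a chemokine that attracts CCR4-bearing T cells (chromosome 8, 94745684 to 94751388), rose and fell at a high level. Its level was 579 and 530 CPM at rest, 2244 and 1954 CPM at 6 h, then 158 and 97.0 CPM at 18 h. The late level lay below the resting one, and the log2 fold change was −4.05 ± 0.21 (SE, adjusted p = 2.18e-09, edgeR). In a fit of the 4 compared libraries alone its adjusted p was 0.0102. Alcam, an adhesion molecule that binds CD6 on T cells, stood at 2.89 and 3.27 CPM at rest, 57.1 and 64.6 CPM at 6 h, then 7.58 and 9.08 CPM at 18 h. It fell by 2.85 ± 0.22 on the log2 scale between 6 and 18 h and was still called above rest (log2 fold change 1.45). Scd4, a stearoyl-CoA desaturase of a gene family with similar copies, whose reads can be split among them, rose from 0.759 and 1.08 CPM to 26.8 and 28.1 CPM and fell to 2.59 and 2.85 CPM. Tubb6, a beta tubulin, went from 3.47 and 3.31 CPM to 53.4 and 44.2 CPM and back to 4.64 and 3.48 CPM. Dusp4, a phosphatase that inactivates ERK, followed with 0.759 and 0.662, then 5.37 and 4.42, then 1.34 and 0.985 CPM. Ctsz, a lysosomal cathepsin, doubled in level by 6 h and was again near rest at 18 h, with 184 and 181, 376 and 354, and 168 and 157 CPM. In each of these genes both early libraries lay above all 4 libraries of the other times.

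**Figure D1:**
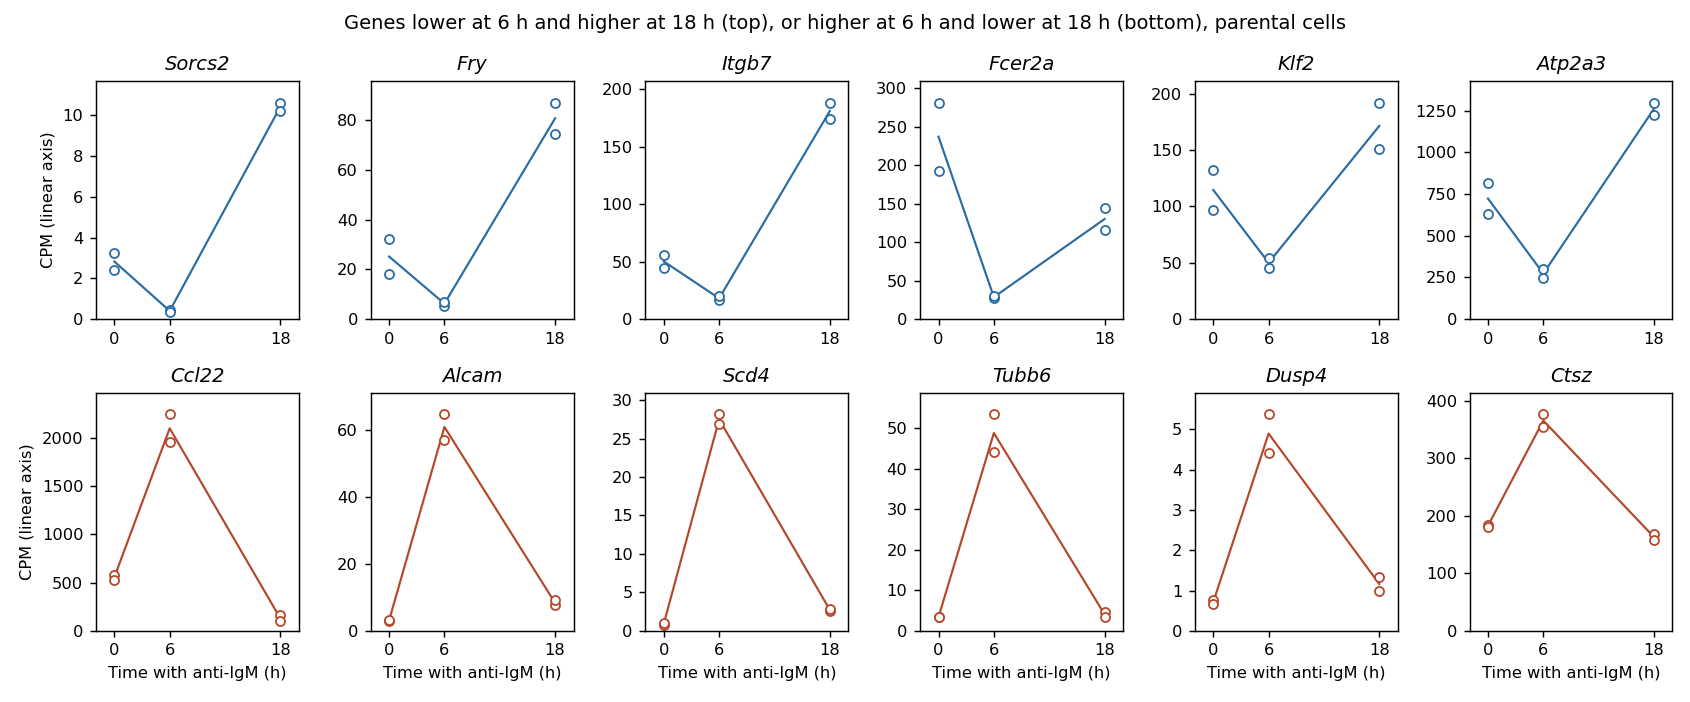
Level in counts per Mio (vertical axis, linear, each panel on its own scale) against time with anti-IgM in h for 12 reverting genes in parental cells; circles are libraries, 2 per time, and lines join the means. The top row dips at 6 h, as Klf2 does from 97.1 and 132 to 45.6 and 54.4 CPM, and the bottom row peaks there, as Alcam does at 57.1 and 64.6 CPM.

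The opposite course, a fall by 6 h and a rise by 18 h, was the larger reverting class. Its 142 genes had a median log2 fold change of −1.34 from 0 to 6 h and 1.98 from 6 to 18 h, and 40 of them ended as DEGs above rest, whereas 102 were not called against it. Sorcs2, a sortilin-family sorting receptor (chromosome 5, 36017180 to 36398197; gene positions here are those of RefSeq, GRCm38.p6), had 2.42 and 3.23 CPM at rest, 0.437 and 0.368 CPM at 6 h, then 10.6 and 10.2 CPM at 18 h. Its rise of 4.67 ± 0.35 on the log2 scale (SE, adjusted p = 5.45e-09, edgeR) was the largest among genes with a mean of at least 50 counts. Fry, a cytoskeletal and mitotic scaffold, fell from 18.2 and 32.1 to 5.42 and 7.08 CPM and rose to 74.5 and 87.0 CPM. Itgb7, the beta chain of a gut-homing integrin, had 44.4 and 56.1, then 16.5 and 19.8, then 174 and 188 CPM. These 3 overshot their resting level in both late libraries.

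Other reverting genes were not called against rest at 18 h, on either side of it. Both late libraries lay above both resting ones for Klf2, Klf3 and Atp2a3, and below them for Fcer2a, Ltb and Syk. Klf2, a factor of lymphocyte quiescence and trafficking, had 97.1 and 132 CPM at rest, 45.6 and 54.4 CPM at 6 h, then 151 and 192 CPM at 18 h (log2 fold change of 18 h against 6 h 1.78 ± 0.16). Klf3 of the same family rose by 2.38 ± 0.14. Fcer2a (CD23), the low-affinity IgE receptor, had 193 and 281, then 27.0 and 30.2, then 145 and 115 CPM (log2 fold change of 18 h against 0 h −0.87). Ltb, a lymphotoxin chain, had 435 and 534, then 94.0 and 97.7, then 332 and 318 CPM. Syk, the kinase that couples the BCR to its effectors, had 909 and 1015 CPM at rest, 398 and 392 CPM at 6 h, then 794 and 807 CPM at 18 h, a rise of 1.02 ± 0.08 on the log2 scale. Atp2a3, a calcium pump of the endoplasmic reticulum, went from 628 and 818 to 247 and 299 and then to 1224 and 1297 CPM.

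Only 9 DEGs moved the same way at both steps. The 6 that rose at both steps included Hpse, the heparan sulfate-degrading heparanase, with 4.20 and 3.85, then 9.18 and 9.94, then 37.9 and 34.0 CPM, and Pik3ip1, an inhibitor of PI3K, with 4.92 and 6.79, then 10.7 and 13.1, then 36.8 and 36.6 CPM. Pacsin1, Ptafr, Chit1 and Ccr1 also belonged to them, and Ccr1 lost its call without the second 6 h library (adjusted p = 0.0253) or without the first 18 h library (0.0237). Those that fell at both steps were Septin3, Foxo6 and Kbtbd13. Septin3 went from 9.66 and 6.54 to 4.50 and 3.48 and then to 1.61 and 1.61 CPM, and Foxo6 from 12.01 and 15.2 to 5.90 and 6.79 and then to 2.41 and 3.53 CPM. Septin3 lost its call without the second 18 h library (adjusted p = 0.0113), and Foxo6 missed the fold threshold without the second 6 h library (log2 fold change −0.97) or the first 18 h library (−0.88). Some genes that had moved by 6 h were not called between 6 and 18 h. Nfkbia, the inhibitor of NF-κB, had 235 and 242 CPM at rest, 59.99 and 64.9 CPM at 6 h, then 82.2 and 67.8 CPM at 18 h (log2 fold change 0.26 ± 0.14, adjusted p = 0.126), and Cd40 had 199 and 205, then 60.9 and 51.6, then 72.1 and 56.7 CPM (0.19 ± 0.14, adjusted p = 0.29). Ccr7, the receptor that guides B cells to the T cell zone, had 1.30 and 1.53 CPM at rest, 6.33 and 7.82 at 6 h, then 7.31 and 8.35 at 18 h (0.15 ± 0.21, adjusted p = 0.574).

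Genes that turned off late were led by ribosome biogenesis, the making of ribosomal RNA and its assembly into subunits in the nucleolus. Of the 74 listed genes, 49 fell and none rose, with a median log2 fold change of −1.32 beside 0.03 over all genes, and 47 of the 49 were late DEGs. Their median from 0 to 6 h was −0.01, and against rest 53 were lower at 18 h. Per library, their median level relative to rest was 0.00 and −0.03 at 6 h and −1.26 and −1.28 at 18 h on the log2(CPM + 0.5) scale. Nolc1, a nucleolar chaperone that binds snoRNPs, had 367 and 351 CPM at 6 h, then 78.8 and 62.4 CPM at 18 h (log2 fold change −2.35 ± 0.19, adjusted p = 1.1e-07, edgeR). Gnl3 (nucleostemin), a nucleolar GTPase whose locus also holds snoRNAs, fell from 354 and 328 to 87.8 and 71.3 CPM. Nop2, an rRNA methyltransferase, fell from 159 and 147 to 41.5 and 36.1 CPM, and Rrp12 from 97.6 and 92.7 to 25.8 and 24.8 CPM. Ncl (nucleolin) fell from 3041 and 2953 to 1115 and 1083 CPM. In all 5 the late libraries lay far under the early and the resting ones.

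The promoters of these genes are shown because they moved together, and for the hexamer CACGTG, which is known for its place in front of such genes. It is an E-box that Myc binds with Max, among other factors. The paper recalls that TFEB, too, was first found through E-box sequences. Which factor binds here was not tested. In the 300 bases that RefSeq (GRCm38.p6) gives around the first listed start site, 250 before and 50 after it, CACGTG occurred in 111 of 681 promoters of genes lower at 18 h (16.3%), in 47 of 772 of genes higher at 18 h (6.09%) and in 1023 of 10243 of all genes tested (9.99%). It was found in 13 of the 63 ribosome biogenesis promoters available (20.6%). These 13 were counted over all 300 bases and over listed genes whether DEGs or not. Only 3 DEGs of the list with a mean of at least 50 counts held the hexamer in the 100 bases before the start site. Those bases are given on the coding strand, 5′ to 3′, with the match in capitals.
Nop2, chr6:125131783-125131882, + strand: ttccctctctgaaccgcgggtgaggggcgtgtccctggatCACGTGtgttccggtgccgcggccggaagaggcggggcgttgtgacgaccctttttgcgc
Utp18, chr11:93885767-93885866, − strand: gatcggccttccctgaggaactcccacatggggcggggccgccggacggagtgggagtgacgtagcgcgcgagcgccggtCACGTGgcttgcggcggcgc
Nol11, chr11:107189382-107189481, − strand: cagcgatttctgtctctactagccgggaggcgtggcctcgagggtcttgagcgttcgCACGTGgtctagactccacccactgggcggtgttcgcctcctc
The first base of the match lies 60, 20 and 43 bases before the start site. Utp18 and Nol11, both of the small-subunit processome, fell by 1.30 and 1.27 on the log2 scale. The other motifs searched on both strands were TGACGTCA (3.67% of lower, 2.33% of higher, 3.22% of all promoters), TGANTCA (5.43, 6.35 and 4.74%), CCAAT (41.1, 35.2 and 38.9%), TTTGAA (10.4, 11.3 and 12.1%) and TTTCGCG (2.79, 0.389 and 1.74%). A match is a string in this window and not a measured binding site.

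Myc itself, the growth-driving transcription factor (chromosome 15, 61985341 to 61990361), had 336 and 306 CPM at rest, 162 and 158 CPM at 6 h, then 72.8 and 43.1 CPM at 18 h. All 4 stimulated libraries lay below both resting ones. The log2 fold change was −1.003 from 0 to 6 h, which was no DEG, and −1.48 ± 0.33 between 6 and 18 h (adjusted p = 0.00341, edgeR). The latter lost its call without the first 6 h library (adjusted p = 0.0184), without the second (0.0156), without the second 18 h library (0.0335), with only the 6 parental libraries (0.0142), with only the 4 compared (0.0553) and with no filter on low counts (0.0122). Mxd4, which pairs with Max in place of Myc and represses, had 38.7 and 59.04 CPM at rest, 40.7 and 47.8 at 6 h, then 244 and 273 CPM at 18 h, a rise of 2.55 ± 0.17. Mxd3 of the same group rose from 10.5 and 11.2 to 19.3 and 24.9 CPM, close to the fold threshold (log2 fold change 1.04), and missed it without the first 6 h library (0.96) or the second 18 h library (0.81). Of the 13 genes of the Myc and Max network, these 2 rose and Myc fell.

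Part of the ER stress and ATF4 list fell late as well. Of 45 listed targets of ER stress and ATF4, the factor that answers amino acid shortage, 13 fell and none rose (median −0.76), and all 13 were late. Atf4 had 310 and 298 CPM at 6 h, then 126 and 122 CPM at 18 h. Chac1, which degrades glutathione, had 19.7 and 18.0 and then 1.87 and 2.18 CPM (log2 fold change −3.19 ± 0.33, adjusted p = 6.45e-07). Asns, which makes asparagine, had 108 and 110 and then 28.7 and 33.5 CPM, and the amino acid transporters Slc7a3 and Slc7a5 fell by 2.61 and 1.66 on the log2 scale. The list's other DEGs were enzymes of serine, glycine and proline synthesis (Shmt2, Psph, Mthfd2, Aldh18a1, Pycr1) and tRNA synthetases (Aars1, Wars1, Gars1).

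DNA replication genes fell by less. Of 57, 11 fell (19.3%) and none rose, with a median of −0.71. Of the 11, 4 were late and 7 in no class, and the list median from 0 to 6 h was 0.19. The 11 included the licensing factors Mcm2, Mcm3, Orc1, Orc2 and Cdc6, and also Mcm10. Mcm2, a subunit of the replicative helicase, had 316 and 292 CPM at 6 h, then 145 and 127 CPM at 18 h (log2 fold change −1.16 ± 0.15), against 286 and 263 CPM at rest. Cdc6, which loads that helicase, had 108 and 93.6 and then 39.2 and 33.7 CPM. Of 67 mitosis genes 1 rose (Cdc25b) and 1 fell (Mybl2), with a median of −0.30, and the proliferation marker Mki67 was not called (2672 and 2680, then 3122 and 3176 CPM). Among 30 G1 regulators, Cdc25a, Tfdp1 and E2f6 fell, whereas Ccng2, a cyclin of arrested cells, and Cdkn2d (p19), an inhibitor of CDK4 and CDK6, rose. The shares were 6.67% higher and 10% lower, beside 7.54% and 5.91% over all genes, and the list median was −0.14. Tfdp1 stood at the fold threshold (log2 fold change −1.02, and short of it without the first 6 h library). Cdkn2d had 21.7 and 23.4 CPM at 6 h, then 56.1 and 57.5 CPM at 18 h. The inhibitors Cdkn1a and Cdkn1b were not called, with log2 fold changes of 0.40 ± 0.16 (adjusted p = 0.043) and 0.72 ± 0.16 (adjusted p = 0.00117).

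Genes of lipid synthesis changed in part. Of 42 cholesterol and fatty acid genes, 11 fell (26.2%, list median −0.52). Of the 11, 3 were late and 8 in no class, and the list median was 0.26 from 0 to 6 h and −0.25 from 0 to 18 h. Among the 11 were Fads2 (57.9 and 52.9, then 16.1 and 14.4 CPM), Fasn of fatty acid synthesis and Sqle of cholesterol synthesis. The 2 that rose remove cholesterol or its uptake: Abca1, the cholesterol exporter, had 114 and 130 CPM at 6 h, then 410 and 432 CPM at 18 h, and Mylip, which degrades the LDL receptor, rose by 1.58 on the log2 scale. Of 34 glycolysis genes 3 fell (8.82%) and 2 rose (5.88%), shares near those over all genes. Slc16a1, a lactate carrier (277 and 270, then 63.6 and 64.7 CPM), Ldha (2201 and 2110, then 895 and 961 CPM) and Pgam1 fell, and Txnip and Pfkfb4 rose. Txnip missed the fold threshold without the second 6 h library (0.91) or the first 18 h library (0.84). The nuclear and the mitochondrial genes of oxidative phosphorylation had medians of −0.11 (73 genes) and 0.15 (7 genes). Of 75 cytosolic ribosomal protein genes 7 fell (9.33%, beside 5.91% over all genes), and the list median was −0.05. They were led by Rps6 (5.99 and 4.50, then 1.70 and 0.985 CPM). Several of these 7 have low counts and many processed copies in the genome that share their reads, and their values are uncertain.

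**Figure D2:**
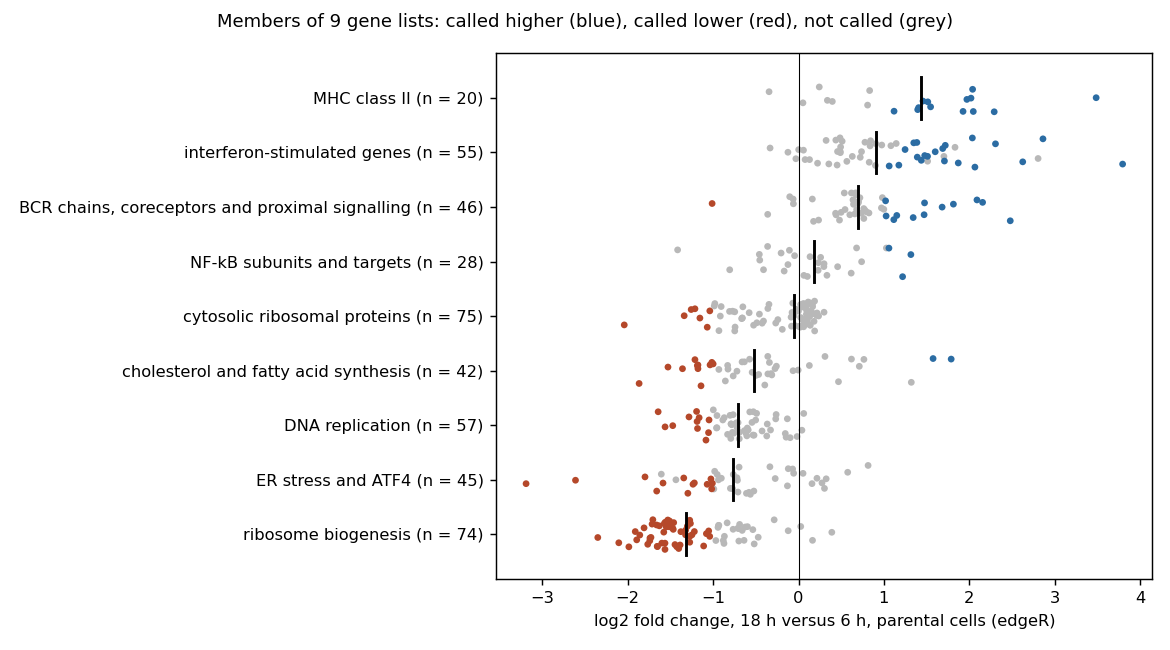
log2 fold change of 18 h against 6 h in parental cells (horizontal axis) for the tested members of 9 gene lists (rows); each point is a gene, shifted vertically at random within its row, black bars are medians, and colours mark DEGs. Ribosome biogenesis has 49 red points and a median of −1.32, and MHC class II has 13 blue points and a median of 1.43.

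Genes that turned on late were led by antigen presentation on MHC class II, by which B cells show processed antigen to CD4 T cells. Of 20 genes, 13 rose and none fell (median 1.43), and 11 of the 13 were late. Per library, the median relative to rest was −0.35 and −0.18 at 6 h, then 1.05 and 0.93 at 18 h on the log2(CPM + 0.5) scale. Ciita, the master activator of these genes, had 24.9 and 28.3 CPM at rest, 18.5 and 25.2 CPM at 6 h, then 81.7 and 84.6 CPM at 18 h (log2 fold change 1.93 ± 0.15, adjusted p = 7.45e-09, edgeR). Cd74, the invariant chain, rose from 660 and 731 to 1892 and 1796 CPM. The classical chains H2-Aa (92.4 and 123, then 222 and 246 CPM), H2-Ab1 (5.85 and 8.35, then 26.5 and 32.1 CPM) and H2-Eb1 (78.8 and 107, then 228 and 261 CPM) rose as well. The peptide-loading factors moved with them: H2-DMb1, part of the editor DM, had 5.16 and 6.51 and then 23.01 and 24.3 CPM, and H2-Ob, part of its inhibitor DO, had 13.7 and 17.3 and then 72.3 and 79.2 CPM. Marchf1, a ubiquitin ligase that removes MHC class II from the surface, rose most, from 0.917 and 1.23 to 12.8 and 11.6 CPM (log2 fold change 3.49 ± 0.31). H2-Aa missed the fold threshold without the first 6 h library (0.90) and had an adjusted p of 0.0333 with only the 6 parental libraries, where H2-Ab1 had 0.0108. H2-DMb1 and H2-DMb2 are near copies whose reads may be shared, and Ciita (chromosome 16, 10480014 to 10531064) overlaps Dexi. The libraries carried no strand information, and 66 of the 175 genes taken by the naming rule overlap another annotated gene.

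The promoters of 4 of these genes are shown for the pentamer CCAAT, which on the coding strand reads ATTGG here and is the core of the Y box of class II promoters. It was present in 10 of the 14 promoters available for the list (71.4%) beside 38.9% of all promoters, and also in 28 of the 47 of the DNA replication list (59.6%), none of whose genes rose. The 100 bases before the start site are those of the DEGs with the largest rises that hold it there, 5′ to 3′, with the match in capitals.
H2-Ob, chr17:34238805-34238904, + strand: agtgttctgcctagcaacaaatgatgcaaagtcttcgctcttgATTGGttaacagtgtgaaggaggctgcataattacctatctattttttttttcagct
H2-DMb1, chr17:34153091-34153190, + strand: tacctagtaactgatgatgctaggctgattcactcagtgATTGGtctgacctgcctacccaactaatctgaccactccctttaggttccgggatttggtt
H2-DMb2, chr17:34145149-34145248, + strand: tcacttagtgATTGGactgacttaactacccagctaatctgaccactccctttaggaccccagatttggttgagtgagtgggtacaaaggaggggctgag
H2-Oa, chr17:34092279-34092378, + strand: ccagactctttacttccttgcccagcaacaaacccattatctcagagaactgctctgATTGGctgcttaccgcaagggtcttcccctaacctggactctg
The first base of the match lies 57, 61, 90 and 43 bases before the start site, and the log2 fold changes of the genes were 2.29, 2.02, 1.97 and 1.55.

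Interferon-stimulated genes, the antiviral genes switched on by type I interferon, rose in part and differed between the 2 late libraries. Of 55, 20 rose, none fell and 35 were not called (median 0.91), and of the 20, 9 were late, 3 reverting, Oas2 among them, and 8 in no class. Relative to rest, their median was −0.15 and −0.45 at 6 h, 1.02 in the first 18 h library and 0.29 in the second, on the log2(CPM + 0.5) scale. Oas2, a sensor of double-stranded RNA, had 5.37 and 5.73 CPM at 6 h, then 53.4 and 28.6 CPM at 18 h (log2 fold change 2.86 ± 0.26, adjusted p = 2.19e-07, edgeR). Irf7, the factor that amplifies the interferon response, had 116 and 93.8 and then 327 and 222 CPM, and Zbp1, a nucleic acid sensor of necroptosis, had 26.0 and 17.6 and then 91.4 and 50.3 CPM. In each of these the first late library was the higher one, and both late libraries lay above both early ones. The number of genes called was 12 without the first 18 h library, 30 without the second, and 10 in a fit of the 4 compared libraries alone, where the adjusted p of Oas2 was 0.0399 and that of Zbp1 0.105. Whether the depth of the first 18 h library, the lowest of the parental ones, has a part in this difference was not tested.

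**Figure D3:**
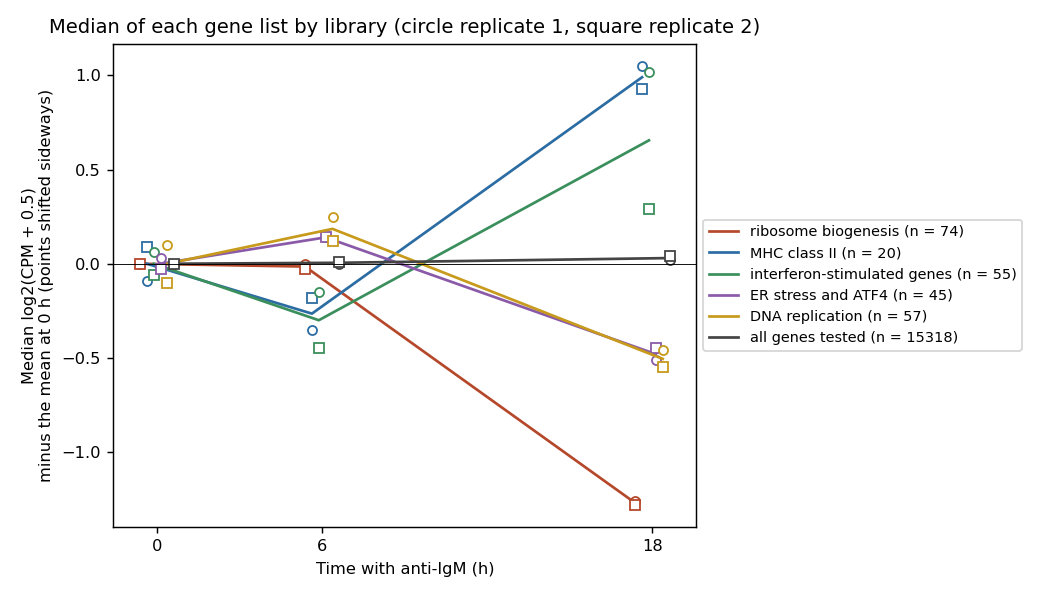
Median over the members of each list of log2(CPM + 0.5) minus the mean of the untreated libraries (vertical axis) against time with anti-IgM in h (horizontal axis, lists shifted sideways); circles are replicate 1, squares replicate 2, and lines join the means. At 18 h ribosome biogenesis lies at −1.26 and −1.28 and MHC class II at 1.05 and 0.93, and the interferon-stimulated genes are split at 1.02 and 0.29.

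Some genes of the receptor and its proximal machinery rose. Of 46 genes of the BCR, its coreceptors and first signalling steps, 12 rose (26.1%) and 1 fell (2.17%), with a median of 0.70. The shares over all genes were 7.54% and 5.91%. Of the 12, 7 were late, 3 reverting, Pirb and Syk among them, and 2, Cd79b and Cd72, in no class. At rest, Cd79b had 737.5 and 792 CPM and Pirb 42.9 and 51.8 CPM. Cd79b, the signalling chain, had 506 and 491 CPM at 6 h, then 1303 and 1225 CPM at 18 h, and Lyn, the Src kinase that both starts and restrains the signal, had 68.9 and 80.4 and then 266 and 259 CPM. Among the members called were 4 receptors known to inhibit the signal: Pirb had 21.4 and 24.7 and then 131 and 127 CPM, Siglecg had 11.97 and 11.8 and then 52.5 and 53.6 CPM, Fcgr2b had 53.7 and 52.3 and then 158 and 136 CPM, and Cd72 rose by 1.15 on the log2 scale. Cd22, Cd5 and Fcrl5, listed receptors of the same kind, were not called (0.68, 0.60 and −0.36). Pirb has close copies in the Pira genes. Cr2 (CD21) was the single member that fell, at a log2 fold change of −1.01. This stood close to the fold threshold (adjusted p = 0.00266). Heavy and light chain transcripts stayed under the fold threshold, as did Cd22 and Pax5, although Ighm, Igkc, Cd22 and Pax5 passed the FDR threshold upwards (log2 fold changes 0.76, 0.70, 0.68 and 0.86).

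Surface receptors of activation and positioning moved in both directions. Of 43 costimulatory and activation genes 9 rose (20.9%) and 4 fell (9.3%), with a median of 0.59. Of 26 chemokine and positioning receptors 9 rose (34.6%) and 2 fell (7.69%), with the same median. The shares over all genes were 7.54% and 5.91%. Of the 9 in each list that rose, 3 and 4 were late and 5 and 2 reverting. S1pr1 was in no class. Slamf6, a homotypic adhesion receptor of lymphocytes, had 6.16 and 4.42 CPM at 6 h, then 41.0 and 36.9 CPM at 18 h. Icosl, the ligand of ICOS on helper T cells, was a reverting gene. It had 6.33 and 6.70 CPM at rest, 2.88 and 2.70 CPM at 6 h, then 12.5 and 8.97 CPM at 18 h. Cd44, a hyaluronan receptor, fell from 139 and 130 to 43.4 and 38.4 CPM, and Tnfrsf1b, a TNF receptor, from 5.77 and 6.14 to 1.87 and 1.35 CPM. S1pr1, the receptor for egress, rose from 14.8 and 14.7 to 42.5 and 37.3 CPM, and Gpr183 (EBI2) from 4.19 and 5.20 to 18.4 and 14.4 CPM. Cxcr4, the CXCL12 receptor, fell from 72.2 and 69.4 to 29.5 and 29.2 CPM (log2 fold change −1.27 ± 0.22, adjusted p = 0.000137). Cxcr5 was not called (165 and 167, then 240 and 232 CPM), and Cd86 stayed under 0.5 CPM in all 6 libraries. Plac8, a small cysteine-rich protein of leukocytes, had the largest rise of the late genes with a mean of at least 50 counts, with 10.2 and 9.08 CPM at 6 h, then 146 and 127 CPM at 18 h (log2 fold change 3.82 ± 0.13). Itgam (CD11b), a myeloid integrin that some B cell subsets carry, had 0.306 and 0.777 and then 8.38 and 7.37 CPM, while other myeloid markers stayed near 0 as given above.

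Among 35 factors of B cell identity, 3 rose (Id3, Klf2, Klf3) and 2 fell (Irf4, Myb). These shares, 8.57% and 5.71%, were near those over all genes (7.54% and 5.91%). Irf4, the factor of plasma cell and germinal centre fate (chromosome 13, 30749233 to 30766981), had 161 and 163 CPM at rest, 117 and 124 CPM at 6 h, then 54.3 and 45.7 CPM at 18 h (log2 fold change −1.27 ± 0.11, adjusted p = 2.6e-08). Id3, an inhibitor of E proteins, had 35.7 and 43.9 CPM at rest, 21.9 and 18.9 CPM at 6 h, then 65.4 and 64.3 CPM at 18 h. Prdm1, the plasma cell factor, had at most 5 counts in any parental library, and Rag1, Rag2 and Il7r had none. Bach2 and Foxo1 were not called (log2 fold changes 0.62 and 0.17). Of 11 recombination and surrogate light chain genes, Vpreb3 rose and Xrcc5 (Ku80) fell (9.09% each way).

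For several immediate early genes the 2 late libraries disagreed in direction or size. Egr1, the zinc finger factor induced by ERK, had 46.6 and 24.5 CPM at 6 h, then 92.2 and 21.4 CPM at 18 h (log2 fold change 0.65 ± 0.75, adjusted p = 0.517), and the sign turned without the first 18 h library (−0.76). Egr2 had 3.19 and 1.76 and then 8.47 and 2.59 CPM, Cd69 had 2.71 and 2.74 and then 8.12 and 1.71 CPM, and Fos had 1.40 and 0.818 and then 2.498 and 0.933 CPM, and none was called. The groups overlapped for Egr1, Egr2, Cd69 and Fos. Of 33 listed genes 6 rose (18.2%) and 3 fell (9.09%), beside 7.54% and 5.91% over all genes (list median 0.22). Those that rose included the antiproliferative genes Btg1 and Btg2 (177 and 193, then 546 and 597 CPM) and Zfp36, which degrades cytokine mRNA. Nr4a1, a readout of BCR signalling, was not called (20.2 and 22.3, then 23.5 and 17.2 CPM), and Nr4a3 fell from 3.98 and 3.97 to 1.25 and 1.30 CPM. Of 20 feedback genes of ERK signalling 5 rose (25%) and 3 fell (15%). Dusp6 rose from 12.6 and 9.17 to 55.0 and 31.4 CPM. Those that fell were Dusp4, Etv4 and, at very low counts, Spry4. Dusp6 had an adjusted p of 0.0125 with only the 6 parental libraries and 0.0676 with only the 4. Dusp5 lost its call without either 6 h library or the first 18 h library (adjusted p 0.0259 to 0.0511), and Dusp2 missed the fold threshold without the first 18 h library (0.86).

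Of 28 NF-κB genes 3 rose (10.7%, beside 7.54% over all genes), and none of the 3 was called at 18 h against rest. Among them were Malt1, a protease that carries the signal from the BCR to NF-κB, and Cyld, which dampens it. Malt1 had 122 and 134 CPM at rest, 88.3 and 89.5 CPM at 6 h, then 220 and 222 CPM at 18 h. Cyld missed the fold threshold without the first 6 h or the first 18 h library (0.99 in both). Of 37 PI3K and FoxO genes 3 rose (8.11%, near the share over all genes), led by Inpp4b, a phosphatase of PI3K products. It was a reverting gene, with 11.2 and 12.2 CPM at rest, 3.10 and 2.54 CPM at 6 h, then 16.6 and 15.97 CPM at 18 h. Of 30 calcium and NFAT genes 4 rose (13.3%), among them Atp2a3, Itpr2 and Itpr3, which move calcium across the endoplasmic reticulum. Death regulators showed few DEGs. Bmf, a BH3-only activator of apoptosis, had 6.60 and 7.24 CPM at 6 h, then 16.1 and 16.8 CPM at 18 h, and was the single DEG among 15 pro-apoptotic genes (median 0.55). Of 6 anti-apoptotic genes, Mcl1 rose from 786 and 795 to 1806 and 1810 CPM. It had 1169 and 1234 CPM at rest and was not called at 18 h against rest. Bcl2a1d, which has close copies, fell from 6.95 and 8.06 to 3.92 and 3.27 CPM. Bcl2a1d missed the fold threshold without the second 6 h library (−0.997) and without the second 18 h library (−0.95). Bcl2l11 (Bim), Bcl2 and Bcl2l1 (Bcl-xL) were not called (log2 fold changes 0.01, 0.24 and 0.13), Bcl2l15 (Bfk) rose by less than the fold threshold (0.56 ± 0.11, adjusted p = 0.000268), and Hrk had at most 1 count in any parental library. Of 24 caspase and necroptosis genes, Zbp1 and Pycard rose and Endog and Cycs fell. The shares were 8.33% each way, beside 7.54% higher and 5.91% lower over all genes. Cycs was at a low level (1.97 and 1.68, then 0.535 and 0.778 CPM). Pycard, at a log2 fold change of 1.01, missed the threshold without each of 3 libraries.

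The remaining lists held few DEGs, with shares higher of 4.55 to 8.33% and shares lower of at most 4.76%, none far above those over all genes. Of 32 p53 targets, Trp53inp1 (97.3 and 111, then 440 and 453 CPM) and Btg2 rose and Tigar fell. Of 22 MHC class I genes, H2-T23 rose. Of 63 lysosome genes, 3 rose, among them Ctsh and Man2b1, and Ctsz, Atp6v1h and Rragd fell (median 0.07), and of 48 autophagy genes, Plekhm1, Calcoco1, Snap29 and Tecpr1 rose (median 0.34). Tfeb, the regulator of lysosomal genes, had 84.3 and 83.6 CPM at 6 h, then 99.7 and 99.9 CPM at 18 h (log2 fold change 0.25 ± 0.11, adjusted p = 0.0594), and its relatives Tfe3 and Mitf were not called. Rragd, a low-count target, lost its call without the second 6 h library or either 18 h library (adjusted p 0.0379 to 0.076).

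The same late against early comparison in the TFEB KO clones was used to ask where parental cells differ. Tfeb transcripts stood at 79.2 to 99.9 CPM in the parental libraries, 25.5 to 40.5 CPM in those of #A-59 and 34.2 to 54.1 CPM in those of #B-20. In #A-59, 678 genes were higher (4.43%) and 703 lower (4.59%) at 18 h than at 6 h, and in #B-20, 423 were higher (2.76%) and 259 lower (1.69%). Of the 1155 parental genes higher at 18 h, #A-59 had 454 and #B-20 had 353 called the same way, and for the 906 lower genes these numbers were 429 and 200. Of the higher genes 1074, and of the lower genes 863, had the parental sign in both clones. Called the opposite way in either clone were 2 and 1. The median of the higher genes was 1.5 in parental cells, 0.94 in the first clone and 0.87 in the second, and that of the lower ones −1.37, −1.04 and −0.80. These genes were chosen for their parental change, and the medians in the clones are therefore a description. The test of the difference itself, the interaction of clone and time, called 136 genes for #A-59 (0.888%) and 100 for #B-20 (0.653%). Without single parental libraries these counts were 63 to 99 and 53 to 69, and without the second 6 h library of #B-20 that clone had 50.

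Many named genes were chosen for a large parental change, which favours smaller changes in the clones. Both interactions also use the same parental libraries, so that a call in both clones is not 2 independent results. Irf4 was among the genes that differed in both clones. It fell by 1.27 on the log2 scale in parental cells, against values of 0.01 (#A-59) and −0.26 (#B-20), and the differences were 1.28 (adjusted p = 9.91e-05) and 1.01 (adjusted p = 0.000756). Scd4, which peaked at 6 h in parental cells, differed by 3.89 and 3.26, and Ccl22 by 1.78 and 2.07. Klf3, Gpr18, Itgb7, Slamf6, Dysf and Carmil1 rose more in parental cells than in either clone. Ccr7, flat between the times in parental cells, rose by 2.04 in #A-59, a difference of 1.89 (adjusted p = 0.00711), whereas the difference of 1.72 in #B-20 had an adjusted p of 0.0133. For Myc the interaction was not called in either clone, at log2 fold changes of 0.05 in #A-59 and −0.08 in #B-20 against −1.48 in parental cells. The MHC class II list had 10 genes called higher in each clone, with medians of 1.02 for #A-59 and 0.96 for #B-20, and the ribosome biogenesis list had 25 and 18 called lower, with medians of −0.77 and −0.80. Of 57 DNA replication genes 26 fell in #A-59 (median −0.95), and the median in #B-20 was −0.38.

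**Figure D4:**
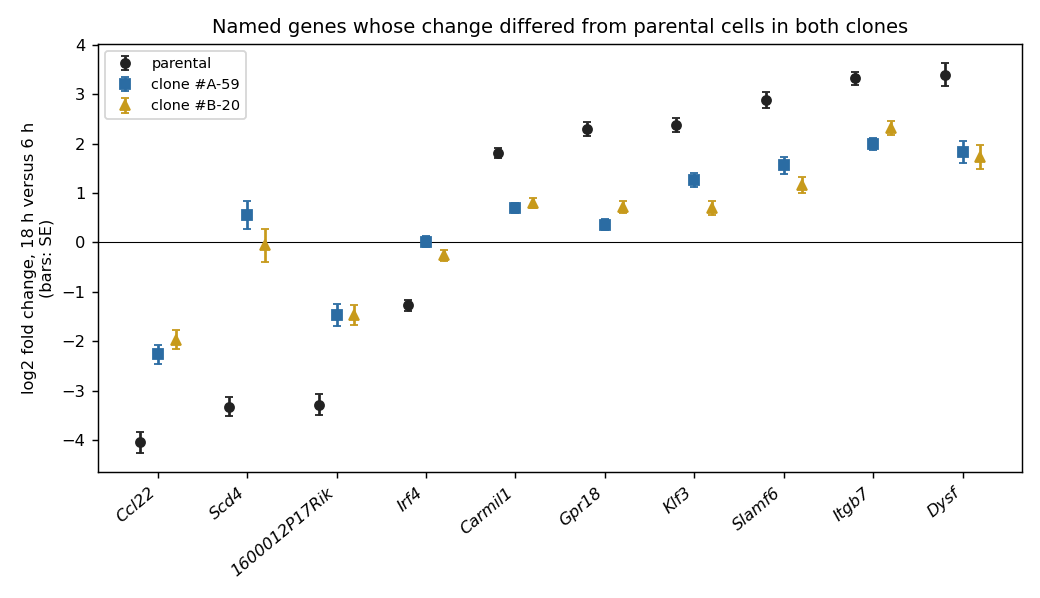
log2 fold change of 18 h against 6 h (vertical axis, bars are SE) in parental cells, #A-59 and #B-20 for the 10 named genes whose interaction was called in both clones; 2 libraries per group. Irf4 lies at −1.27 in parental cells and at 0.01 and −0.26 in the clones, and Itgb7 at 3.32, 1.99 and 2.32. Both interactions use the same parental libraries.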

How the data were processed

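RNA of WEHI-231 cells was measured in 18 libraries: parental cells and the TFEB KO clones #A-59 and #B-20 at 0, 6 and 18 h with anti-IgM, 2 per group. Each deposited file holds raw counts of reads per Ensembl gene, which the authors made from non-stranded poly(A) libraries with STAR 2.5 on GRCm38 and featureCounts 1.5.0-p1 (versions from the submitters' processing notes, which also list bcl2fastq 2.20.0.422). The counting options are not given in the sources used here. Of 55487 IDs, 51731 (93.2%) were named from GENCODE vM39 and 36031 (64.9%) placed from RefSeq on GRCm38.p6.

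Counts were tested with edgeR 4.0.16 in R 4.3.3: filterByExpr, TMM scaling and the robust quasi-likelihood test with 9 group means over all libraries, and Benjamini-Hochberg adjustment over 15318 genes. Replicates are the 2 libraries of a group. CPM are counts scaled to the TMM-adjusted total over the genes tested. DEGs had an FDR below 0.01 and a log2 fold change past 1 or −1. DESeq2 1.42.0, other filters, other samples in the fit, a GC offset and left-out libraries were the alternatives. The pipeline was tested on simulated counts. Library totals ran from 11223588 to 29655262 counts; intervals cover counting error only.

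The members and the 30 gene lists were chosen with earlier results of these data known. Named genes were the 12 largest changes in each direction, up to 4 DEGs per list and 6 per class with a mean of at least 50 counts, and a list of fixed genes; 175 were tested. Further list members, the genes given with the promoter sequences, and genes of small classes were named after their values were seen. A few of these genes are not reported here.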

Additional observations from a re-analysis of the deposited data

Results flagged for a closer look

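The number of genes whose change from 6 to 18 h differed between a clone and parental cells was 136 for #A-59 and 100 for #B-20 (interaction of clone and time, edgeR). The genes below are among the named ones, with clone minus parental differences on the log2 scale, and 2 libraries per group. Many of the named genes were chosen for a large parental change, which favours smaller changes in the clones. The differences of both clones share the parental libraries and are not independent.

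Among genes that rose in parental cells, several rose less in both clones. The difference in #A-59 and then #B-20 was −1.57 and −1.67 for Dysf, −1.33 and −1.003 for Itgb7, −1.32 and −1.72 for Slamf6, −1.12 and −1.68 for Klf3, −1.93 and −1.57 for Gpr18, and −1.12 and −1.01 for Carmil1. In #A-59 alone it was called for Sorcs2 (−2.82), Itgam (−2.12), Mxd4 (−1.35), Pirb (−1.28) and Atp2a3 (−1.17). In #B-20 alone it was called for Reps2 (−3.90), Plac8 (−1.39), Samd9l (−1.34), Clec12a (−1.33) and Filip1l (−1.22). A call in one clone and not in the other does not show that the clones differ, and that difference was not tested.

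Among genes that fell in parental cells, the difference in #A-59 and then #B-20 was 1.28 and 1.01 for Irf4, 1.81 and 1.81 for 1600012P17Rik, 3.89 and 3.26 for Scd4, and 1.78 and 2.07 for Ccl22. In #A-59 alone it was called for Nr4a3 (3.19) and Alcam (1.88), and in #B-20 alone for D630045J12Rik (2.40). Ccr7, not called in parental cells, differed by 1.89 in #A-59. Each clone is 1 line, so that the edit and other differences between clones cannot be told apart.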

How the results depend on the processing

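The DEG counts of 18 h against 6 h, 1155 higher and 906 lower, ranged from 870 to 1192 and from 697 to 1102 over all alternatives, and 1557 to 2057 of the 2061 calls were kept; without single libraries they were 870 to 1000 and 832 to 960. Without single libraries, reverting genes numbered 84 to 133 higher and 56 to 77 lower, late genes 380 to 450 and 496 to 570, progressive genes 2 to 5 and 1 to 3, unplaced genes 353 to 434 and 250 to 325, and interaction calls 63 to 99 in #A-59 and 50 to 69 in #B-20. A filter of 10 counts in each library, which tests fewer genes, left 32 reverting lower genes. The 3 progressive lower genes became 0 under DESeq2 with betaPrior, 5 with no filter, 5 with only the 6 parental libraries, and 6 with the replicate block, with or without the GC offset.

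The replicate numbers are shared by all groups but pair only 2 libraries per group, and were not taken as pairs. Deviations of same-numbered parental libraries correlated at 0.316 between 6 and 18 h, and the replicate block gave 1192 higher and 929 lower DEGs, and 157 interaction calls in #B-20. The 4 compared libraries alone give no classes.

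The sign turned for 9 named genes, none of them called in the main comparison, though Bcl6 was called without the first 18 h library (log2 fold change 1.77, adjusted p = 0.00727, edgeR). Bcl2l11 was −0.049 with no filter, −0.013 with the 4 libraries, −0.019 with the 6 libraries, −0.014 with the GC offset, −0.012 with that and the block, and −0.17 to 0.145 without single libraries. Without single libraries the ranges were −0.764 to 1.359 for Egr1, −0.701 to 1.554 for Cd69, −0.27 to 1.157 for Fos, −0.019 to 0.339 for Cd40, −0.047 to 0.268 for Bcl2l1, −0.017 to 0.286 for Ccr7, −0.919 to 1.77 for Bcl6 and −0.335 to 0.124 for Nr4a1. Over named genes and alternatives, 2331 values kept direction and side of the threshold, 76 lost the call and 2 gained one. The causes were not tested. The 2 libraries per group and the depth of the first 18 h library limit genes of few counts.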

Other observations

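Further gene families were looked at after their values were seen, and their counts and medians (log2 fold change of 18 h against 6 h, parental cells, edgeR) are a description. Over all genes tested, 7.54% were higher and 5.91% lower at 18 h. Gimap genes, GTPases of lymphocyte survival, rose in 6 of 9 tested (median 1.17), with Gimap6 at a mean of 23.4 CPM at 6 h and 63.4 CPM at 18 h. The paired Ig-like receptors Pira and Pirb rose in 7 of 7 (median 2.64), but they are near copies that can share reads, so that they do not count as 7 separate changes. Histone genes rose in 6 of 32 (median 0.78). H2az2, a histone variant with a poly(A) tail, had the highest level of them, with means of 45.4 and 143.9 CPM.

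Translation initiation factors of the Eif group fell in 8 of 56 (median −0.36), with Eif5a at means of 1291 and 514.7 CPM. Subunits of the mitochondrial import machinery (Timm and Tomm) fell in 7 of 25 (median −0.55), protein arginine methyltransferases in 4 of 7 (median −1.02), the chaperonin subunits Cct in 3 of 8 (median −0.88) and the RNA exosome subunits Exosc in 3 of 9 (median −0.70). Host genes of small nucleolar RNAs (Snhg) fell in 4 of 12 (median −0.82).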
